A study of Bos taurus with 13 samples.

Results

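Glucocorticoid-induced genes were followed in the blood of dairy cows that differed in milk cortisol. The set comprised 10 genes that cortisol and related steroids are widely known to induce, namely *TSC22D3*, *DUSP1*, *IL1R2*, *SGK1*, *DDIT4*, *IRS2*, *PER1*, *KLF9*, *ZBTB16* and *CEBPD*, and they were looked up by name among 16095 named genes. Of these, 9 had an entry in the count tables and passed the filter on low counts, and *CEBPD*, which encodes a transcription factor of the C/EBP family, had no entry under that name and was not analysed here. RNA of whole blood, drawn from the tail vein into PAXgene tubes, was sequenced without globin depletion for 13 untreated cows of the Italian Red Pied breed (called Italian Simmental in the study), 7 from the high tail (replicates 1 to 7) and 6 from the low tail (replicates 8 to 13) of milk cortisol in a commercial herd. All cows were lactating and clinically healthy, and each was bled ahead of its feed, once the morning's milk had been collected. The groups were therefore chosen by a single milk measurement and not by a treatment, and they can differ in other respects. Cortisol values of single cows were not used here. In whole blood, a lower level of a gene can stand for fewer cells of a type or for less RNA per cell, and these cannot be told apart.

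Cortisol enters cells and binds the glucocorticoid receptor, which then moves to the nucleus and switches on genes near its binding sites. In leukocytes, several of the induced genes restrain inflammation, and others act on growth signalling, on the circadian clock or on transcription. Cortisol itself follows a daily rhythm, and neutrophils, monocytes and lymphocytes carry the receptor, so whole blood is a common place to look for such a response.

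Counts on named genes lay between 12198355 and 23709740 in the high group and between 11045599 and 28124575 in the low group. Markers of neutrophils, monocytes, T cells, B cells, cytotoxic cells and platelets were all found. For neutrophils, 6 of 8 markers had an entry (*CXCR1* and *CXCR2* did not), and their summed level was 4107 to 8557 CPM (counts of a gene scaled to a common library size by TMM) in the high group and 6419 to 8936 CPM in the low group. All 5 monocyte markers passed the filter, with a summed level of 503 to 1201 CPM in the high group and 849 to 1248 CPM in the low group. Scores of the 8 marker lists did not differ between groups after adjustment (exact two-sided permutation tests, smallest adjusted p = 0.392, for the erythroid list with an unadjusted p of 0.0490). At an unadjusted p below 0.05 in edgeR's test, 2 of 6 neutrophil markers and 1 of 5 monocyte markers were lower in the high group, while 3 markers of each list had a log2 fold change above 0. In the same test 1 of 5 platelet markers was lower, with all 5 below 0, and 3 of 4 erythroid markers tested were higher, beside 2.09% of all genes in either direction. The haemoglobin share of the counts on named genes was 0.0282% to 0.815% in the high group and 0.0114% to 0.0552% in the low group, a difference of 2.05 in log2 share (exact two-sided permutation test, p = 0.0175). It was summed over those of *HBB*, *HBG*, *HBM* and *HBQ1* that had an entry. Other globin genes and genes without a name were not in the sum, so it need not hold all haemoglobin RNA.

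The genes spanned a wide range of levels. Levels between genes were compared as RPKM, CPM divided by the length of the gene model in kilobases, with lengths from the count tables. *TSC22D3* encodes GILZ, a leucine zipper protein that blocks inflammatory transcription factors, and it was the most abundant member at 314 RPKM ± 74.6 (SD, n = 13), above 97.5% of the genes tested. *ZBTB16*, which encodes the zinc finger repressor PLZF, was the least abundant at 0.461 RPKM ± 0.197 (SD, n = 13), above 4.01% of the genes tested. The geometric means of these 2 genes were 732-fold apart.

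Between these ends, *SGK1*, a serine/threonine kinase that controls ion transport and cell survival, had 87.8 RPKM ± 26.7 (SD, n = 13). *DUSP1*, a phosphatase that switches off MAP kinases, had 74.0 RPKM ± 17.3 (SD, n = 13). In 8 of 13 cows *SGK1* lay above *DUSP1*. This was the one pair of neighbours in the order without a p below 0.05 (exact sign-flip permutation test, p = 0.0864). *DDIT4*, an inhibitor of the growth kinase complex mTORC1, followed with 44.95 RPKM ± 8.42 (SD, n = 13). The decoy receptor for interleukin-1 encoded by *IL1R2* had 8.36 RPKM ± 3.26 (SD, n = 13), and the clock gene *PER1* had 4.95 RPKM ± 0.686 (SD, n = 13). At the low end, *KLF9*, a Krüppel-like zinc finger factor, had 3.28 RPKM ± 1.13 (SD, n = 13), and *IRS2*, an adaptor of the insulin receptor, had 1.44 RPKM ± 0.806 (SD, n = 13). The other 7 pairs of neighbours differed, each in at least 12 of 13 cows, with an adjusted p of 0.00195 or lower from the same exact permutation test over 8 pairs. The order was set from the same values that were tested, so these tests are not an independent check of it. The gene models differ in length, from 794 bases for *TSC22D3* to 3868 bases for *PER1*, so these ratios rest on the annotation as well as on the reads.

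**Figure D1:**
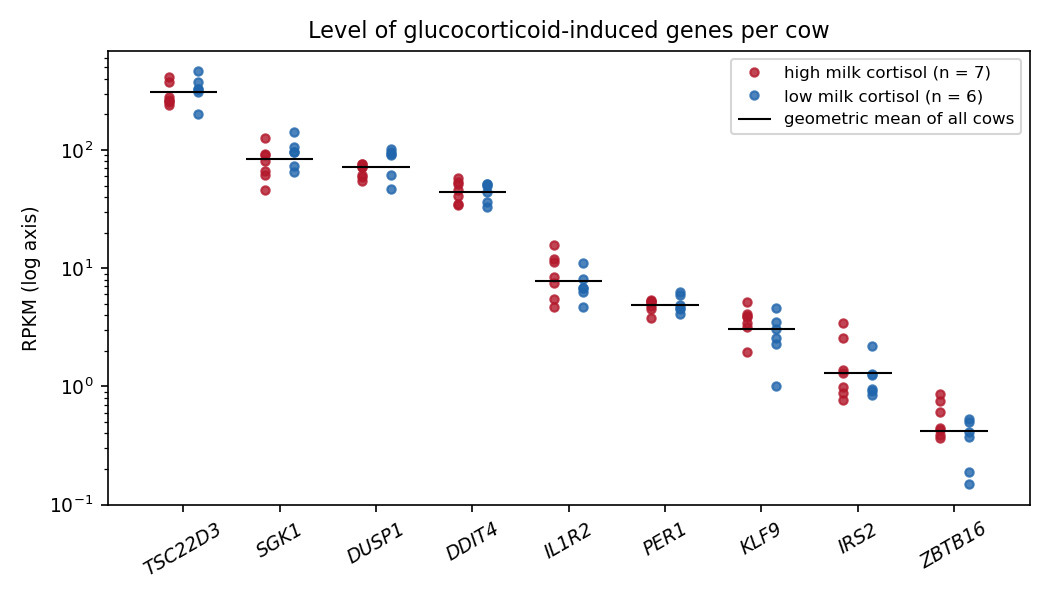
RPKM on a log axis for each of 9 glucocorticoid-induced genes, with 1 point per cow, coloured by milk cortisol group (7 high, 6 low), and a line at the geometric mean of all 13 cows. *TSC22D3* lies highest and *ZBTB16* lowest, and the ranges of the colours overlap within each gene.

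To see whether genes that cortisol induces differed between the tails of milk cortisol, edgeR's quasi-likelihood test was run on high against low cows over 11033 genes, and positive log2 fold changes stand for higher expression in the high group. None of the 9 members reached an adjusted or an unadjusted p of 0.05, and their adjusted p was 0.998 throughout. Of the genes tested, 0% passed the adjusted threshold (0 of 11033) and 2.09% had an unadjusted p below 0.05 (231 genes). DESeq2 and limma-voom likewise placed 0 of the 9 below an unadjusted p of 0.05, with smallest p of 0.0979 and 0.100. Of the 9 genes, 4 had a log2 fold change below 0, against 46.7% of all genes, and their median log2 fold change was 0.04, beside 0.01 over all genes. The groups overlapped for each of the 9 genes, and they failed to overlap for 0.0453% of all genes tested (5 genes). The study itself reported differentially expressed genes between its groups with DESeq2, and it selected more cows than were counted here. Its list was not compared with these results.

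**Figure D2:**
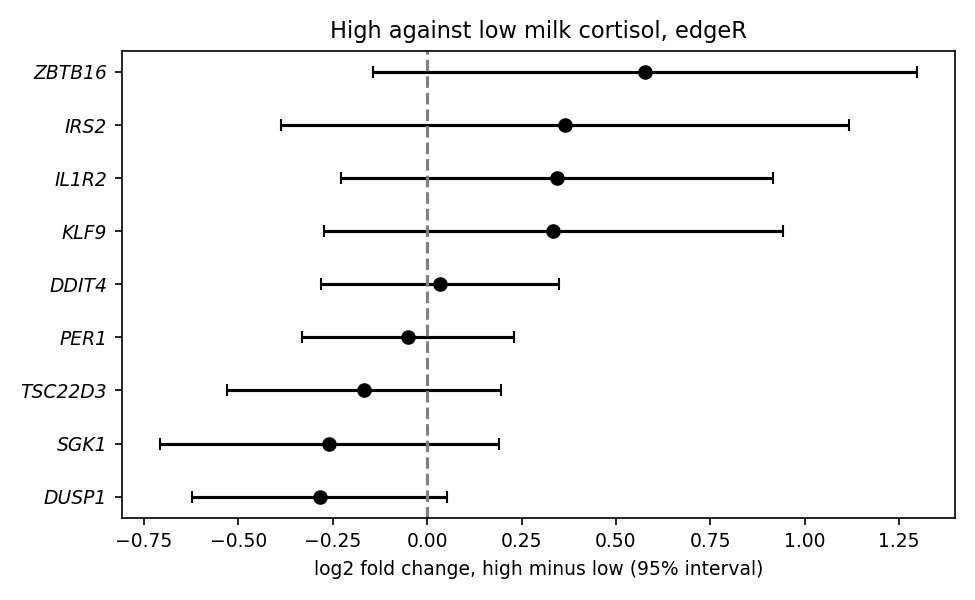
Log2 fold change of the high against the low group on the horizontal axis for each gene, as points with 95% intervals from edgeR's quasi-likelihood fit, and a dashed line at 0. All 9 intervals cross 0, and they are widest for *IRS2*, *ZBTB16* and *KLF9*.

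Among the genes that restrain inflammation, *TSC22D3* (chromosome X of the UMD3.1 genome build, from which all positions are given, 59707292 to 59772737) ranged from 191 to 326 CPM in the high group (median 211) and from 160 to 366 CPM in the low group (median 261). Only replicates 2 and 5 of the high group, at 326 and 296 CPM, exceeded the low group's median. The other high cows had 191 to 222 CPM and lay under every low cow but replicate 12. The lowest and the highest level both belonged to low cows. The log2 fold change was -0.17 (standard error, SE, 0.17), and its 95% interval, -0.53 to 0.20, corresponds to levels in the high group of 0.693 to 1.15 times those in the low group. Over all 1716 ways to divide the cows, the exact two-sided permutation test of log2 CPM had p = 0.442.

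*DUSP1* (chromosome 20, 4449109 to 4452189) had 111 to 154 CPM in the high group (median 145) and 95.2 to 208 CPM in the low group (median 185). Each of the 7 high cows was under the low group's median. Of the low cows, 4 lay above every high cow, at 184 to 208 CPM, while replicates 12 and 13 had 95.2 and 125 CPM and lay within or below the high group. *DUSP1* had the smallest p of the 9 genes (edgeR, unadjusted p 0.0933), its log2 fold change being -0.28 (SE 0.16, 95% interval -0.62 to 0.05). Without replicate 12 the log2 fold change was -0.40 with an unadjusted p of 0.00750 (edgeR, not passing adjustment). Without replicate 13 it was -0.35 with an unadjusted p of 0.0447 (edgeR, not passing adjustment). Leaving out any other cow did not bring the unadjusted p below 0.05. Without replicate 11 the log2 fold change was -0.21 (edgeR, unadjusted p 0.221), and limma-voom with all cows gave an unadjusted p of 0.159. With all cows, the exact permutation test gave p = 0.212.

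*IL1R2* (chromosome 11, 6721485 to 6757777) had 6.15 to 20.7 CPM in the high group (median 11.1) and 6.20 to 14.4 CPM in the low group (median 8.96). The ranges began at nearly the same level, and replicates 2, 3 and 5 of the high group lay above all low cows. High cows differed from low cows by a log2 fold change of 0.34 (SE 0.27, 95% interval -0.23 to 0.91), and the exact permutation test gave p = 0.360.

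**Figure D3:**
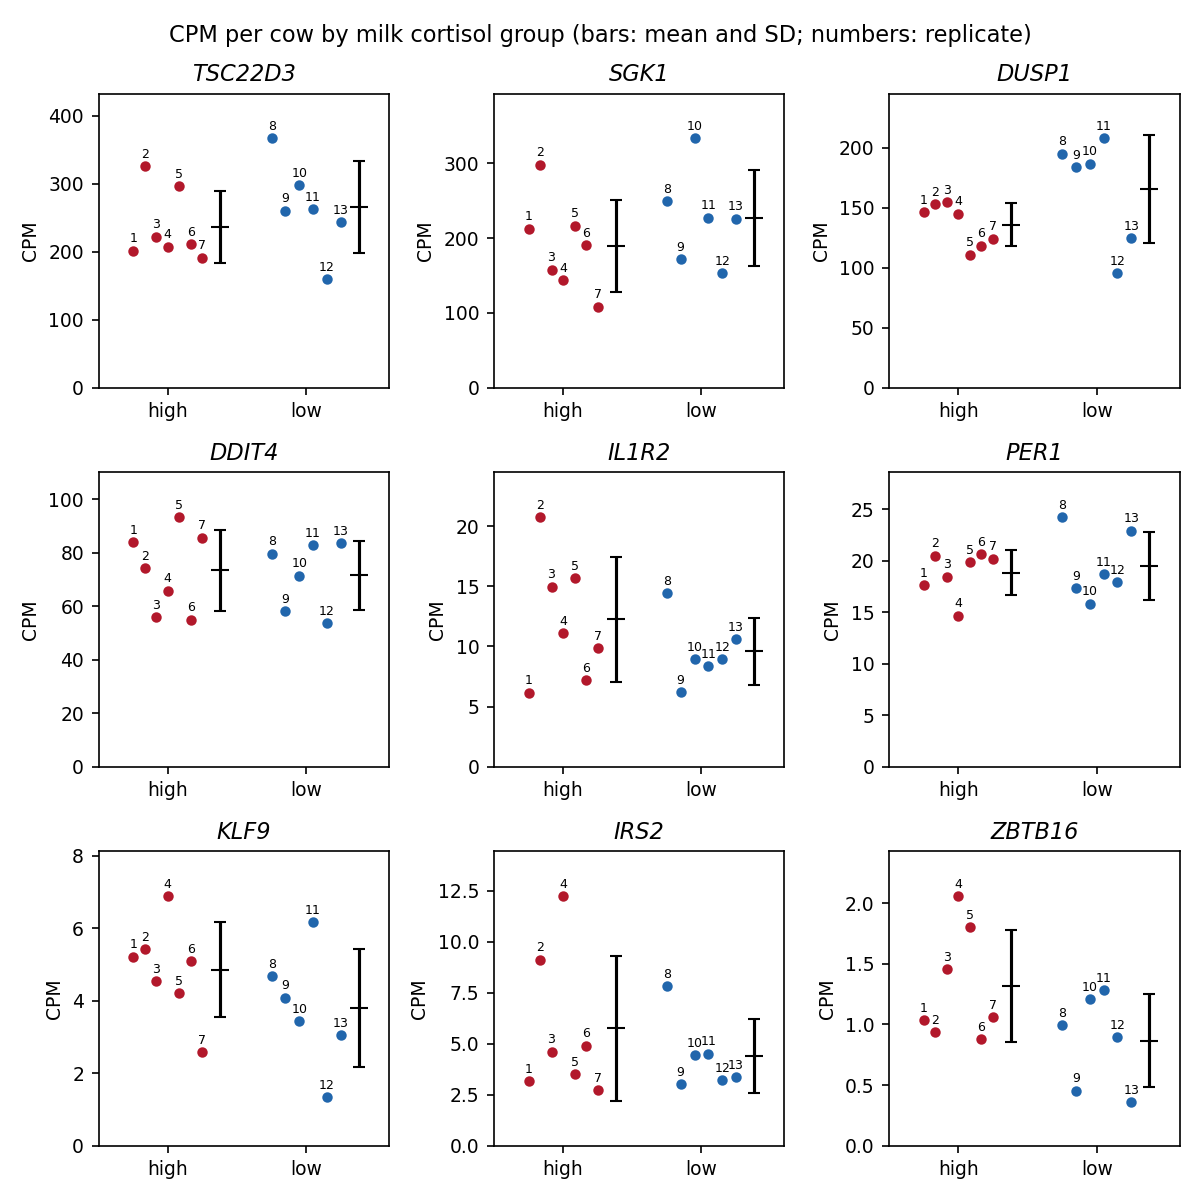
CPM of each of the 9 genes on a linear axis from 0, with 1 point per cow labelled by replicate, high cows at the left and low cows at the right, and bars for the mean and SD of each group. For *DUSP1*, replicates 12 and 13 stand below the other 4 low cows, and for *IRS2* replicates 2, 4 and 8 stand above the other cows.

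Among the genes of growth and metabolic signalling, *SGK1* (chromosome 9, 73305313 to 73310869) had 108 to 298 CPM in the high group (median 191) and 153 to 333 CPM in the low group (median 227). Of the high cows, only replicate 2 exceeded the low group's median. On the log2 scale the difference was -0.26 (SE 0.21, 95% interval -0.71 to 0.19), and the exact permutation test gave p = 0.283. *SGK1* had a Spearman rho of -0.593 with the log2 haemoglobin share over the 13 cows (permutation p = 0.0368, adjusted p = 0.199 over 27 relations; Pearson r = -0.647, permutation p = 0.0168, with -0.751 among high cows, -0.235 among low cows, and -0.366 without the 2 cows farthest from the median of *SGK1*). With that share as a covariate the log2 fold change was 0.11, so its sign changed; the part of the haemoglobin share in the result was not tested.

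*DDIT4* (chromosome 28, 28483403 to 28485410) had 54.9 to 93.2 CPM in the high group (median 74.2) and 53.6 to 83.7 CPM in the low group (median 75.5). The groups covered nearly the same range. The log2 fold change was 0.04 (SE 0.15), and its 95% interval, -0.28 to 0.35, corresponds to 0.823 to 1.28 times the low group.

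*IRS2* (chromosome 12, 88664525 to 88669181) had 2.72 to 12.2 CPM in the high group (median 4.61) and 3.03 to 7.81 CPM in the low group (median 3.89). Replicates 2 and 4 of the high group had 9.11 and 12.2 CPM and replicate 8 of the low group had 7.81 CPM, while the other 10 cows had at most 4.90 CPM. By edgeR's fit the log2 fold change was 0.36 (SE 0.35, 95% interval -0.39 to 1.12), and the exact permutation test gave p = 0.497. It was 0.06 without replicate 4 and 0.62 without replicate 8. With the neutrophil score as a covariate the log2 fold change was 0.60, with an unadjusted p of 0.0167 (edgeR, not passing adjustment). In that fit 589 of 11033 genes had an unadjusted p below 0.05, beside 231 without a covariate. The log2 fold change was 0.10 with the T cell score as a covariate (edgeR, unadjusted p 0.749). It was 0.77 with the haemoglobin share (edgeR, unadjusted p 0.106).

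Among the transcriptional regulators, *PER1* (chromosome 19, 28390594 to 28399600) had 14.7 to 20.6 CPM in the high group (median 19.9) and 15.8 to 24.2 CPM in the low group (median 18.3). It was the most even of the 9 genes, with 1.65-fold between the highest and the lowest cow. The within-group SD of log2 CPM was 0.207 for *PER1*, larger than in 22.0% of all genes tested. The log2 fold change was -0.05 (SE 0.13, 95% interval -0.33 to 0.23), so levels in the high group were between 0.795 and 1.17 times those in the low group by this interval.

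*KLF9* (chromosome 8, 46883356 to 46907760) had 2.58 to 6.88 CPM in the high group (median 5.09) and 1.34 to 6.17 CPM in the low group (median 3.76). The low group's median was exceeded by 6 of 7 high cows. In log2 terms the groups were 0.33 apart (SE 0.29, 95% interval -0.27 to 0.94), and the exact permutation test gave p = 0.222.

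*ZBTB16* (chromosome 15, 24917133 to 25116350) had 0.880 to 2.06 CPM in the high group (median 1.06) and 0.358 to 1.28 CPM in the low group (median 0.946). Replicates 3, 4 and 5 of the high group lay above all low cows, and replicates 9 and 13 of the low group lay below all high cows. The log2 fold change of 0.58 (SE 0.34, 95% interval -0.14 to 1.30) was the largest of the 9 genes, with an unadjusted p of 0.109 (edgeR), and the exact permutation test gave p = 0.0810. These values rest on 6 to 42 counts per cow, the fewest of the 9 genes.

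The genes varied between cows to different extents. The within-group SD of log2 CPM was 0.673 for *IRS2*, larger than in 91.1% of all genes tested, 0.580 for *KLF9*, 0.553 for *ZBTB16* and 0.534 for *IL1R2*. *SGK1* followed with 0.441, *TSC22D3* with 0.346 and *DUSP1* with 0.334, beside a median of 0.308 over all genes tested. *DDIT4* (0.291) and *PER1* (0.207) lay below that median.

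To see whether the genes varied together from cow to cow, the 36 pairs were compared by Spearman correlation of log2 CPM over the 13 cows, with permutation p from 100000 resamples and Benjamini-Hochberg adjustment over the 36 pairs. The correlation was positive for 30 pairs, with a median rho of 0.250 and a range of -0.412 to 0.846. Against all other genes tested, each member had a positive rho with 49.2% to 51.7% of them. Since the 36 pairs share genes and cows, they are not independent, and the number of positive pairs was not tested. A single pair passed an adjusted p of 0.05, and 3 pairs had an unadjusted p below 0.05. The pair was *TSC22D3* and *SGK1*, with rho = 0.846 (permutation p = 0.000450, adjusted p = 0.0162) and Pearson r = 0.750 (permutation p = 0.00331, adjusted p = 0.119), or r = 0.787 without the 2 cows farthest from the median of *TSC22D3*. Among 11032 other genes ordered by rho, *SGK1* was at place 43 for *TSC22D3*, and *TSC22D3* was at place 51 for *SGK1*. Cows with much *TSC22D3* also had much *SGK1* in both groups, with r = 0.782 among the 7 high cows and r = 0.721 among the 6 low cows. When replicate 2, 7, 8, 10 or 11 was left out, the adjusted p of this pair lay between 0.0587 and 0.0770, with rho of 0.818 to 0.825. With group means subtracted it was 0.208 (rho = 0.687).

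*KLF9* and *IRS2* had rho = 0.692 (permutation p = 0.0110, adjusted p = 0.197; r = 0.592, permutation p = 0.0328, and 0.604 without 2 cows), and *TSC22D3* and *DUSP1* had rho = 0.610 (permutation p = 0.0300, adjusted p = 0.361; r = 0.614, permutation p = 0.0261). The former pair passed adjustment without replicate 1 of the high group (rho = 0.853, adjusted p = 0.0135). For the latter pair r was -0.01 among high cows and 0.845 among low cows, and 0.318 without 2 cows. Replicate 12 of the low group was the lowest of all cows for both genes. Whether the groups differ in this relation was not tested. The most negative pair was *PER1* and *ZBTB16* (rho = -0.412, permutation p = 0.164, adjusted p = 0.711; r = -0.425, permutation p = 0.148).

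**Figure D4:**
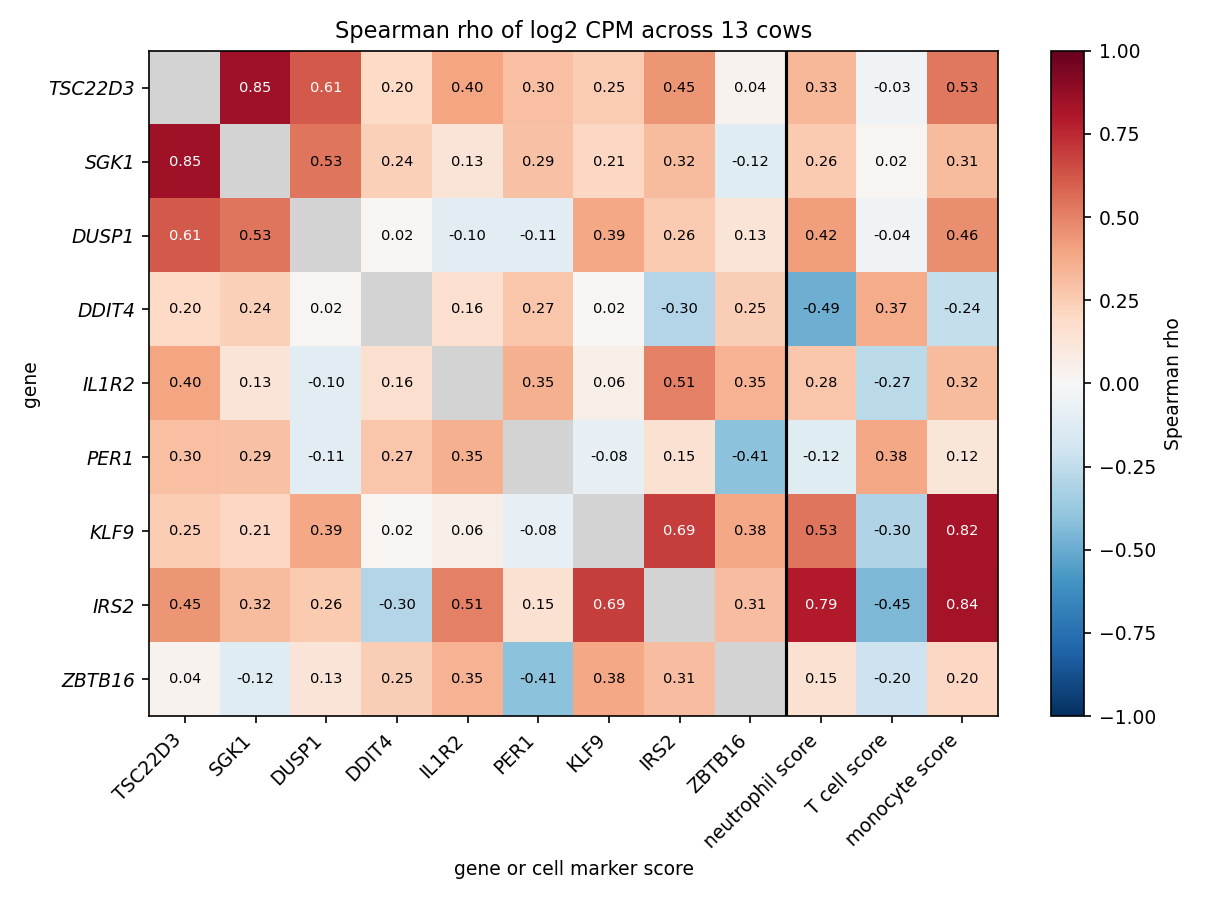
Spearman rho of log2 CPM across 13 cows for each pair of the 9 genes and, right of the line, for each gene with the neutrophil, T cell and monocyte marker scores, with colour from -1 to 1 and the diagonal in grey. The darkest cells are *TSC22D3* with *SGK1* (0.85) and *IRS2* and *KLF9* with the monocyte score (0.84 and 0.82).

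The same genes were set beside the neutrophil, T cell and monocyte marker scores, in 27 relations, where a score is the mean of log2 CPM over a marker list, centred on each gene. *IRS2* rose with the monocyte score (rho = 0.835, permutation p = 0.000720, adjusted p = 0.0134; r = 0.762, permutation p = 0.000990, and 0.713 without the 2 cows farthest from the median of *IRS2*). Within groups, r was 0.782 among high cows and 0.833 among low cows. *IRS2* also rose with the neutrophil score (rho = 0.791, permutation p = 0.00189, adjusted p = 0.0170; r = 0.734, permutation p = 0.00515, adjusted p = 0.0695, and 0.616 without 2 cows), with r = 0.938 among high cows and 0.603 among low cows. *KLF9* rose with the monocyte score (rho = 0.824, permutation p = 0.000990, adjusted p = 0.0134), with r = 0.871 among high cows and 0.610 among low cows. By Pearson's r over all cows the latter relation was 0.574 (permutation p = 0.0593, adjusted p = 0.272), and 0.605 without 2 cows. When replicate 2, 4, 7 or 8 was left out, the adjusted p of *IRS2* with the neutrophil score lay between 0.0739 and 0.0796. The neutrophil and monocyte scores themselves had rho = 0.736 (permutation p = 0.00583, adjusted p = 0.0175 over 3 pairs of scores; r = 0.760, permutation p = 0.000840), so the relations with one and with the other are not separate. The other 24 relations did not pass adjustment, *TSC22D3* with the monocyte score having rho = 0.527 (permutation p = 0.0668, adjusted p = 0.361; r = 0.523, permutation p = 0.0605). How many of all genes tested follow these scores as closely was not computed. The relations can therefore not be called particular to *IRS2* and *KLF9*.

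Relations with properties of the libraries were also computed, 27 in all, after the values of the genes had been seen. *DDIT4* rose with the number of counts on named genes (rho = 0.808, permutation p = 0.00129, adjusted p = 0.0348; r = 0.860, permutation p = 0.000270, and 0.839 without the 2 cows farthest from the median of *DDIT4*), with r = 0.940 among high cows and 0.855 among low cows. The 4 cows with the lowest *DDIT4*, replicates 3, 6, 9 and 12, had 53.6 to 58.0 CPM and at most 15024046 counts. The share of counts on genes without a name, 13.9% to 16.7% of a library, was lower where *TSC22D3* was higher (rho = -0.747, permutation p = 0.00453, adjusted p = 0.0489; r = -0.772, permutation p = 0.00202, with -0.548 among high and -0.945 among low cows, and -0.570 without 2 cows). *DUSP1* had rho = -0.742 with that share (permutation p = 0.00543, adjusted p = 0.0489; r = -0.673, permutation p = 0.0120, adjusted p = 0.108, with -0.486 among high and -0.818 among low cows, and -0.665 without 2 cows). The part of depth and of this share in the levels of these genes was not tested.

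**Figure D5:**
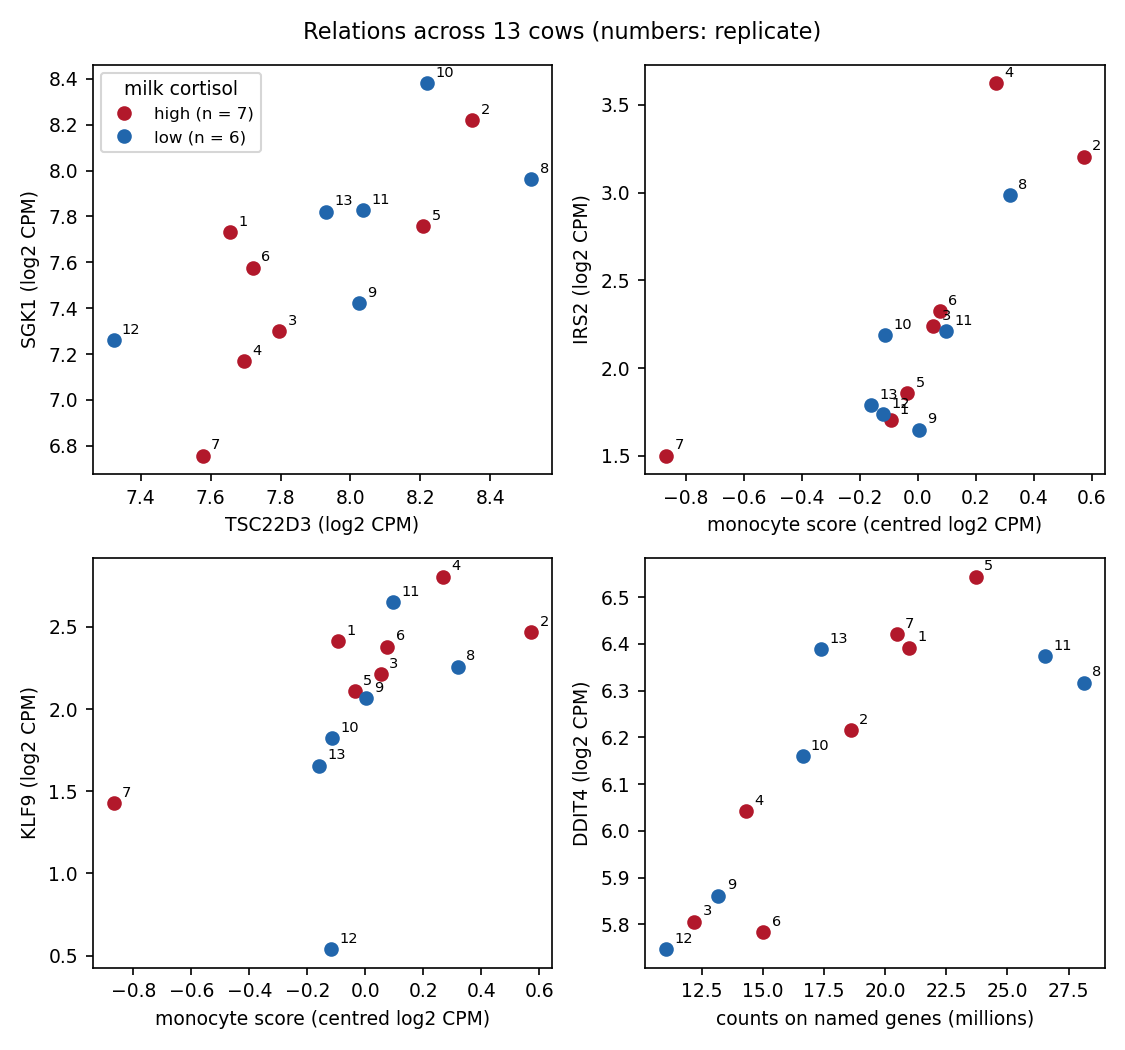
Log2 CPM of *SGK1* against that of *TSC22D3*, of *IRS2* and *KLF9* against the monocyte score, and of *DDIT4* against counts on named genes, with 1 point per cow labelled by replicate and coloured by group. The points of both groups run upward in each panel, and replicate 12 lies below the others in the panel of *KLF9*.

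For each gene, genes most like it in Spearman rho over the 13 cows, among the 11032 others tested, are given as a description. *TSC22D3* was closely matched by *CRY2*, a repressor of the circadian clock (rho = 0.934). *SGK1* was most like *GAB4* (0.962) and *IL1RN*, the interleukin-1 receptor antagonist (0.951), and *IL1R2* most like *ADIRF* (0.896) and *NR1D1*, the clock repressor REV-ERB alpha (0.868). *IRS2* was most like *NCOA2*, a coactivator of nuclear receptors (0.951), and *NOTCH1*, a receptor in cell fate signalling (0.912).

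For the remaining members, *KLF9* was most like *PPM1H* (0.912) and *HSPB11* (0.863), *DUSP1* most like *VSTM1* (0.907) and *GTF2B*, a general transcription factor (0.874), and *DDIT4* most like *MIF4GD* (0.885) and *ABHD16A* (0.868). The genes most like *PER1* were *CCDC120* (0.863) and *PACS1* (0.857), and those most like *ZBTB16* were *GRAMD1B* (0.813) and *CFAP45* (0.808). Among 72 ordered pairs of members, the median place was at 26.8% of the order from the most alike gene, 2 pairs lay within the first 1% of genes, namely *SGK1* at place 43 for *TSC22D3* and *TSC22D3* at place 51 for *SGK1*, and 5 lay within the first 5%.

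Other genes known to be induced by glucocorticoids also showed no difference past the tests. Of 24 listed, 22 passed the filter on low counts, 13 had a log2 fold change above 0 and 9 below 0, and the median was 0.01, equal to the median of all genes at 2 decimals. None had an unadjusted p below 0.05 (edgeR). The smallest p was that of *ADORA3*, an adenosine receptor, at an unadjusted p of 0.111 (edgeR). High cows had a mean of 22.3 CPM ± 16.3 (SD, n = 7) and low cows one of 14.6 CPM ± 4.97 (SD, n = 6), and the log2 fold change was 0.60 (SE 0.35). Without replicate 3 of the high group, which had the highest level at 57.9 CPM, the log2 fold change of *ADORA3* was 0.16 (unadjusted p 0.536 from edgeR). *ERRFI1*, a feedback inhibitor of the EGF receptor, had a log2 fold change of 0.29 (SE 0.21), and *PDK4*, a kinase that shuts off pyruvate dehydrogenase, had 0.41 (SE 0.31). With the neutrophil score as a covariate, 2 of the 22 had an unadjusted p below 0.05, beside 589 of all 11033 genes in that fit, namely *ERRFI1* (log2 fold change 0.41, unadjusted p 0.0463 from edgeR) and *PDK4* (0.63, unadjusted p 0.0230), neither passing adjustment.

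Of 14 genes known to be repressed by glucocorticoids, 11 had an entry and 6 passed the filter, of which 3 had a log2 fold change above 0 and 3 below 0, with a median of 0.04. The other 5, *IL6*, *CCL2*, *CSF2*, *IFNG* and *IL2*, had at most 11 counts in any cow. *PTGS2*, the inducible cyclooxygenase, had an unadjusted p of 0.0459 (edgeR, adjusted p 0.998), the only one of the 6 below 0.05. Its mean was 4.03 CPM ± 3.05 (SD, n = 7) among high cows against 2.03 CPM ± 1.49 (SD, n = 6) among low cows, so that the log2 fold change was 0.98 (SE 0.45). When replicate 1, 2, 3, 4, 8, 9, 11, 12 or 13 was left out its unadjusted p was 0.0502 to 0.179 (edgeR), and it was 0.126 with the T cell score as a covariate. The log2 fold change of *PTGS2* was 0.52 without replicate 4 and 1.45 without replicate 10, where the unadjusted p was 0.00373 (edgeR).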

How the data were processed

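Whole blood RNA of 13 cows was measured. The authors deposited counts, whole numbers of reads per gene name without normalization, and per the file headers they were made with featureCounts 1.4.6-p3 on exons of Ensembl release 88 (UMD3.1), without an option for strand. The submitters' processing notes name STAR 2.7.3, Subread 1.6.5 and ARS-UCD1.2 instead, so the aligner behind the tables is uncertain. A folder name in the headers refers to goat, while the labels and the annotation named are of cattle. Groups came from the sample labels, which name no batch, and separate samples were taken as separate cows. Animal numbers in the file headers differ from the numbers in the file names, and no key between them was used, so which animal each table holds rests on the labels alone. The entry of genes without a name was left out. No pair of libraries held identical counts.

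Counts were TMM-scaled to CPM, log2 CPM (prior count 2) and RPKM. Groups were compared with edgeR 4.0.16 (robust quasi-likelihood fit, filterByExpr with a minimum count of 10 and a minimum total of 15, Benjamini-Hochberg over all genes) in R 4.3.3. Standard errors (SE) were obtained by dividing the log2 fold change by the root of its F statistic. The permutation tests were two-sided. Alternatives were DESeq2 1.42.0, limma-voom (limma 3.58.1), RLE factors, other filters, a fit that is not robust, covariates (haemoglobin share, neutrophil or T cell score), Pearson's r, a prior count of 0.5, and leaving out each cow. The fits were tested on simulated data. Depth ranged from 11045599 to 28124575 counts on named genes, where 3 counts are 0.107 to 0.272 CPM (counting error only).

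The genes, lists and tests were chosen with earlier results of these data known. Named are the members, the 2 genes most like each (1 of these is not reported here), and from each further list the genes at an unadjusted p below 0.05, or the 3 with the smallest p. A planned search of promoters for motifs was not done, and the relations that were planned with *CEBPD* were left out.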

Additional observations from a re-analysis of the deposited data

How the results depend on the processing

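Under the alternatives run, none of the 9 members reached an adjusted p of 0.05, with each tool, filter, covariate and left-out cow. Of 80 log2 fold changes of these genes under the settings that kept all cows, 78 kept their sign, and the exceptions were *DDIT4* with the neutrophil score as a covariate (-0.0712) and *SGK1* with the haemoglobin share (0.11). *ZBTB16* was not tested where at least 10 counts in every cow were required. Without 1 cow, the value changed sign in 7 of 117 cases, all of *DDIT4* (-0.0341 to 0.0936) or *PER1* (-0.0996 to 0.0285). Leaving out 1 cow moved other log2 fold changes too, with ranges of -0.28 to -0.05 for *TSC22D3*, -0.40 to -0.12 for *SGK1* and -0.40 to -0.21 for *DUSP1*. The ranges were 0.17 to 0.53 for *KLF9*, 0.06 to 0.62 for *IRS2*, 0.17 to 0.50 for *IL1R2* and 0.42 to 0.73 for *ZBTB16*. At an unadjusted p below 0.05 there was 1 member with the neutrophil score (*IRS2*) and 0 to 1 without 1 cow (*DUSP1*). Over all genes, DESeq2 called 1 and gave 348 at an unadjusted p below 0.05, a fit without a filter gave 414, the haemoglobin share 120, the neutrophil score 589, and leaving out 1 cow 191 to 373. Of the further glucocorticoid-induced genes, 2 had an unadjusted p below 0.05 with the neutrophil score. Of the repressed genes, 2 did with DESeq2, 2 with at least 10 counts in every cow and 0 to 2 without 1 cow. The number of pairs of genes past the adjusted threshold was 0 by Pearson's r, 0 with group means subtracted, 0 with the neutrophil and T cell scores regressed out and 0 to 2 without 1 cow, and the number of relations with cell scores was 1 by Pearson's r. Where not given with the value, the cause was not tested. No paired analysis was possible because the groups share no replicate numbers.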

Other observations

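The cows differed in how many of the 9 genes were high at once. Replicate 12 of the low group lay below the mean of all cows for each of the 9 genes in log2 CPM and was among the 3 lowest cows for 5 of them, and it also had the fewest counts on named genes (11045599). Replicate 2 of the high group and replicate 8 of the low group lay above the mean for 8 of the 9 genes and were among the 3 highest cows for 5 each, with 18595924 and 28124575 counts. The mean over the 9 genes of centred log2 CPM was 0.0456 ± 0.230 (SD, n = 7) in the high group and -0.0532 ± 0.319 (SD, n = 6) in the low group, and the lowest value, -0.496, and the second highest, 0.361, both belonged to low cows.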
